A study of Mus musculus with 2 samples.

Results

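Oxidative phosphorylation complexes II to V were described here through 61 genes out of 27370 on the array. They were taken by gene name: the subunit and assembly factor genes whose names begin with Sdh and a letter from a to d, Uqcr, Cox and a number from 4 to 8 or 10 to 19, or Atp5, and Cyc1, Cycs and Cyct. These genes were read by 91 probes, and the brightest probe of a gene, by mean signal, stood for it. Of the 61 genes, 56 were well above background on both arrays, as were 14351 genes in all; 1 further gene was so in WT cells alone and 4 on neither.

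The arrays hold RNA of leukemia-initiating cells from mouse acute myeloid leukaemias that carry the MLL-AF9 fusion with a YFP reporter, the fraction of a leukaemia that can start the disease again. The cells came from the bone marrow of female mice and were sorted for YFP, Mac-1 and c-Kit. One group was Jam3-null, lacking the adhesion molecule gene Jam3, and the other was wild type (WT) for it; both carry MLL-AF9. There was 1 array per genotype, labelled as from 3 mice each, and the age of the mice, how Jam3 was deleted and whether RNA was pooled in equal parts are not given in the sources used here.

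Complex II (succinate dehydrogenase) passes electrons from succinate to ubiquinone and also works in the tricarboxylic acid cycle. Complex III passes them from ubiquinone to cytochrome c, complex IV (cytochrome c oxidase) from cytochrome c to oxygen, and complex V (ATP synthase) uses the proton gradient across the inner membrane to make ATP. Complex IV has subunits with tissue isoforms, among them heart and skeletal muscle forms and testis forms, which replace the ubiquitous form.

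Probes of 3 of the genes at least 2-fold apart, and promoters of ubiquitous genes and of tissue isoforms for comparison, are shown first. The first 30 bases of the probes for 2 tissue isoforms and for cytochrome c are given, 5′ to 3′, as the array files hold them. On mm9, as the array files give it, the Cox6a2 probe lies at chr7:135349160-135349219, the Cox6b2 probe at chr7:4703488-4703547 and the Cycs probe at chr6:50515255-50515314, all on the minus strand. Which exon or UTR they lie in was not analysed here.
Cox6a2 probe: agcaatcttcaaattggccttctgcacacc
Cox6b2 probe: ggaactttcccgggcaaaatatgaccttgc
Cycs probe: aatgatcttcgctggaattaagaagaaggg

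The promoters below run from 250 bases before to 50 bases after the gene start and are RefSeq sequences of GRCm38.p6. In Cycs and Cox6a1, ubiquitous genes, the capitals mark the core of the site bound by NRF1, a factor known for driving respiratory genes. Its letters GCATGCG were found on both strands with overlap, from positions -61 and -60 of Cycs and -161 and -160 of Cox6a1. In Cox8b, a muscle isoform, the capitals mark the TATA box letters TATAAA, which here lie after the annotated start, and Cox6b2, the testis isoform, has none of them.
Cycs promoter, chr6:50566520-50566819, minus strand: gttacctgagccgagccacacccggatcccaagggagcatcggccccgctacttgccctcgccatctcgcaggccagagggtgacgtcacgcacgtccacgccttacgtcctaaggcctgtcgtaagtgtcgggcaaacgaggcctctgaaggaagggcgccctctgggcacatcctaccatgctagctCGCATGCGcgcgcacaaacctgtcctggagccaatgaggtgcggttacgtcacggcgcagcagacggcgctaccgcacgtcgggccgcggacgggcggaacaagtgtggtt
Cox6a1 promoter, chr5:115348909-115349208, minus strand: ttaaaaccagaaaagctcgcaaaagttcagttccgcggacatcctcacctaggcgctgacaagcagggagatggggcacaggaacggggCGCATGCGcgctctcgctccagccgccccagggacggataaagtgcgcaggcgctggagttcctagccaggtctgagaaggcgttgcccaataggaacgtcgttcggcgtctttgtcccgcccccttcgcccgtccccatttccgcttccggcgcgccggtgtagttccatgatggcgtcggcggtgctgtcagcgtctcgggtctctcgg
Cox8b promoter, chr7:140900397-140900696, minus strand: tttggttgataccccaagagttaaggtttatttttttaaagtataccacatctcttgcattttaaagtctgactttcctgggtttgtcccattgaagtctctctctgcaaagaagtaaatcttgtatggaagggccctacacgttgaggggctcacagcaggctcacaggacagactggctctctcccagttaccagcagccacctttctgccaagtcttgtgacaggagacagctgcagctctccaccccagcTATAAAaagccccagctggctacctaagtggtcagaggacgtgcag
Cox6b2 promoter, chr7:4753045-4753344, minus strand: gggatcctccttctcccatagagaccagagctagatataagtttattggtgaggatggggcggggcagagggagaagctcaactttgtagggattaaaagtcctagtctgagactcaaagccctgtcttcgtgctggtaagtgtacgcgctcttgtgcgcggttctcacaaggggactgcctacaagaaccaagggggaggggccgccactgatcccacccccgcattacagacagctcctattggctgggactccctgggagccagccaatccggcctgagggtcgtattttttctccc

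Promoters were matched for 47 of the 61 genes. These include 5 of the 8 tissue isoforms but not Cox6a2, whose promoter was not available and was not read for motifs. The NRF1 core stood in 9 of 31 ubiquitous subunit genes, Cycs included, or 29.0%, in 0 of 11 assembly factors and relatives and in 0 of 5 tissue isoforms, against 4.01% of all 27025 genes with promoters of that length. Those 9 genes are Atp5g2, Atp5j, Atp5k, Atp5l, Cox6a1, Cycs, Sdhb, Uqcr11 and Uqcrc1, whose log2 differences between the genotypes, given with each complex, ran from -1.04 for Cycs to -0.04 for Atp5j. The ETS core CCGGAAG, bound by the GABP factor, stood in 12 of 31 ubiquitous genes, or 38.7%, in 6 of 11 assembly genes and in 0 of 5 isoforms, against 9.93% of all genes. The YY1 core ATGGCGG stood in 2 of 31, 3 of 11 and 1 of 5 of them, against 4.69%. The TATA box letters stood in 1 of 31, 1 of 11 and 2 of 5 of them, against 15.7%. All motifs were read on both strands, matches of one motif may overlap another, and a match says only that the letters are present.

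The share of the 43379 non-control spots well above background was 55.0% for Jam3-null cells and 61.8% for WT cells. Jam3 was read by 2 probes that were not well above background on either array, at signals of 28.1 and 5.40 in Jam3-null cells against 5.09 and 3.23 in WT cells, so the targeted gene did not check the labels. Itgam (Mac-1) and Kit, used in the sort, were well above background on both arrays, with log2 differences of 3.71 and 0.09, as were the myeloid markers Ptprc at 0.61 and Mpo at 0.11. Each difference is a log2 value of Jam3-null cells minus that of WT cells, with the arrays scaled to their 75th percentiles, a negative value meaning a lower signal in Jam3-null cells, and ± is the SD of the scanner software's error model. Signals are printed as measured, before that scaling. That error leaves out the spread between mice, 1 array per genotype allows no test, and precision is limited by the number of arrays. In bulk RNA, fewer cells of a type and less RNA per cell cannot be told apart.

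The ubiquitous subunits of complexes II to V were lower as a group in Jam3-null cells, by a modest amount. Of 38 measured ubiquitous subunits 36 were below 0 (9 took either sign under other scalings or probe choices), with a median of -0.44, against 55.2% of all genes compared and a median of -0.07 over those. With Cycs, 31 of 39 were lower by more than 1 error SD and 8 were within 1 SD of 0. The same mark was passed by 5778 of the 14351 genes compared and by 745 of the 1436 in the brightest 10%. Among all 56 measured genes, 49 were below 0. The 2-fold mark was reached by 4 genes in the lower direction, where 8.63% of all genes compared and 6.75% of the brightest 10% reached it, and by 1 gene in the higher direction, where 10.3% and 6.41% did. At 1.5-fold, 15 of 56 (26.8%) were lower, against 20.3% of all genes and 20.4% of the brightest 10%; the count was 5 under cyclic loess and 21 with spike-in scaling. The share at least 2-fold lower, 7.14%, is near the background, the share at least 2-fold higher, 1.79%, is below it, and the share below 0 is above it.

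These genes are bright, and bright genes were lower in general as scaled here, though not under cyclic loess. Of the 56 genes, 37 lay in the brightest 10%, 1436 genes with a mean signal of at least 11982.5, of which 68.5% were below 0 and the median difference was -0.23. Set beside those, the ubiquitous subunits' median differed by -0.21. Within the genes other than isoforms and the pseudogene (n = 52), the difference had a Pearson r of 0.10 and a Spearman rho of 0.13 with log2 mean signal, as a description across genes that share both arrays.

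**Figure D1:**
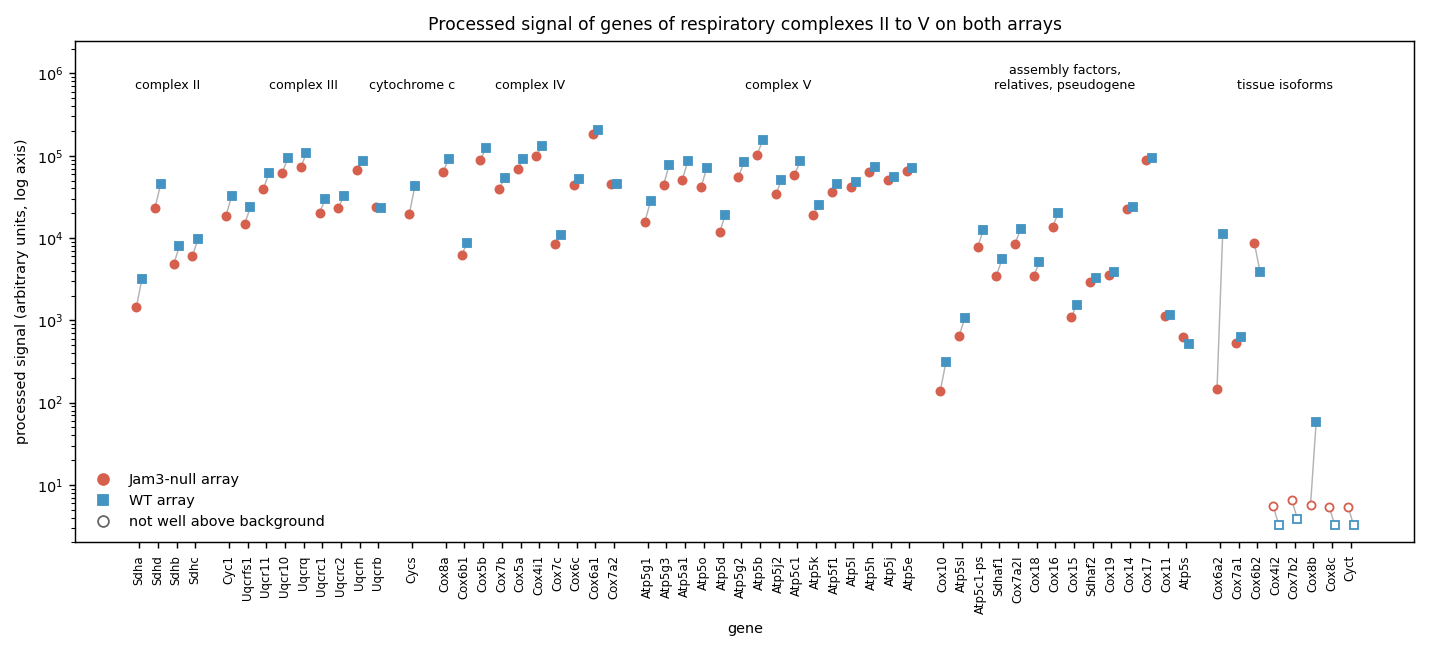
Processed signal (arbitrary units, log axis) of each of the 61 genes, with the Jam3-null array as a circle left of the WT array as a square; open symbols are not well above background. WT squares lie above the Jam3-null circles for most subunits, the Cox6a2 pair is 75.7-fold apart before scaling, and Cox6b2 has its circle well above its square.

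**Figure D2:**
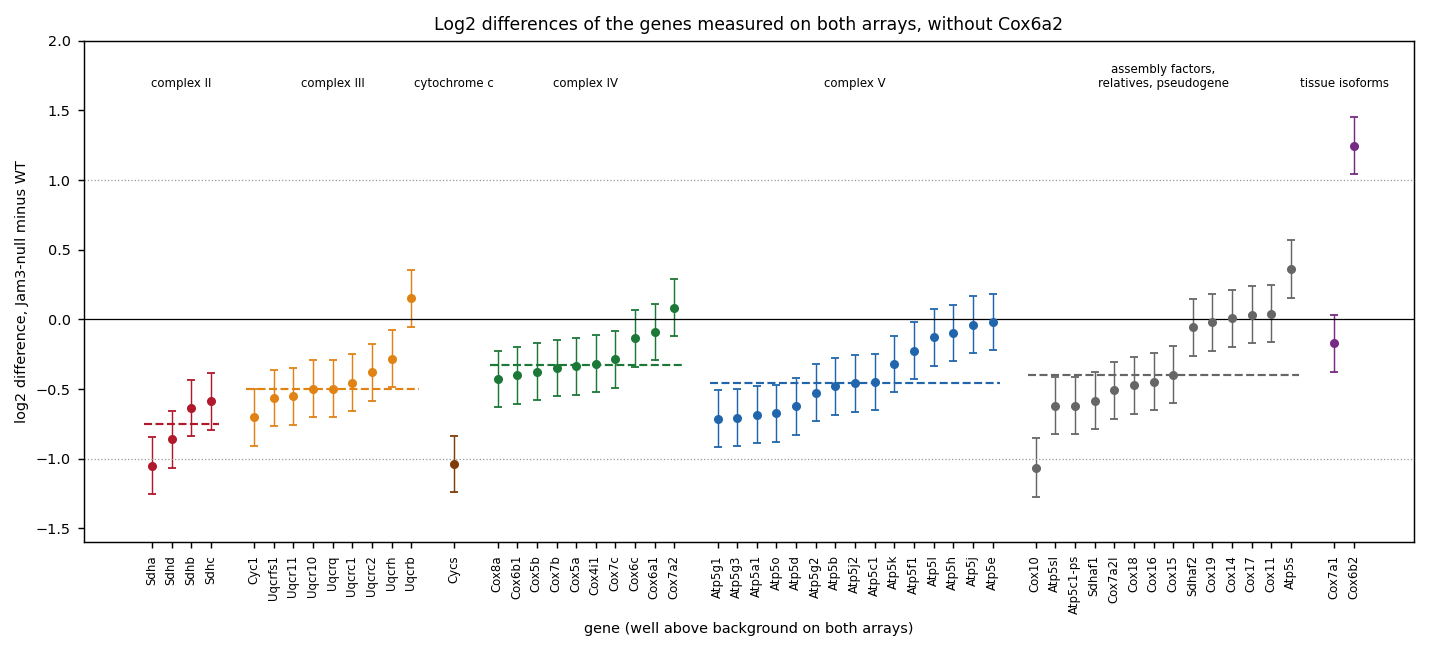
Log2 difference, Jam3-null minus WT, of each gene well above background on both arrays, without Cox6a2 at -6.15; bars are ± 1 SD of the error model, dashed lines medians of the groups, dotted lines 2-fold. All 4 complex II genes and all 15 complex V genes lie below 0 and Cox6b2 alone lies above the upper dotted line, while 9 subunits, Uqcrq and 8 of those nearest 0, take either sign under other scalings or probe choices.

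**Figure D3:**
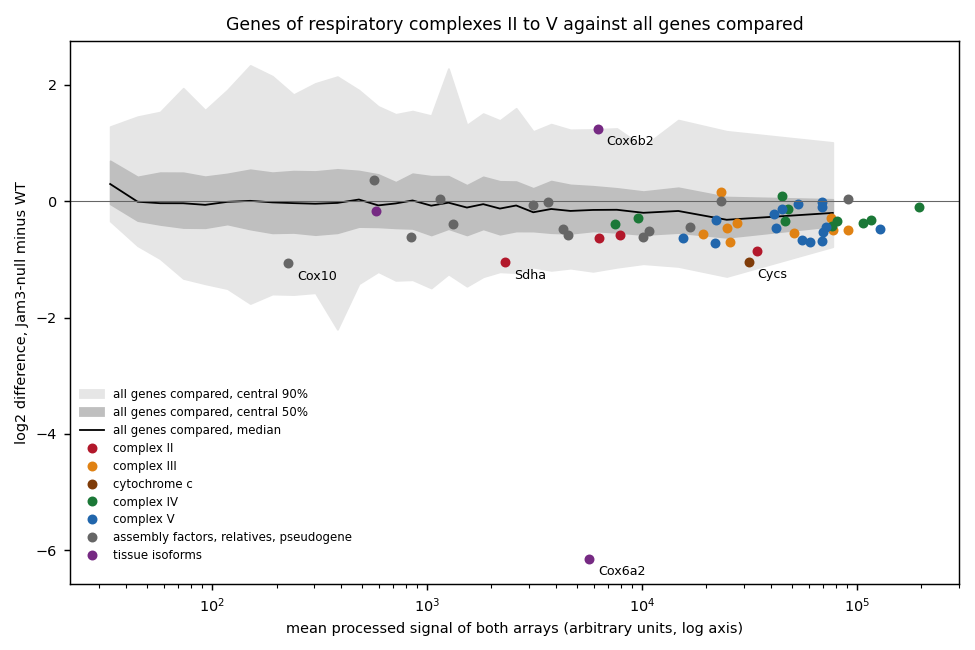
Log2 difference, Jam3-null minus WT, against the mean processed signal of both arrays (arbitrary units, log axis) for the genes of complexes II to V, with the median and central 50% and 90% of all genes compared by brightness. Most subunits sit at the bright end, under the median of genes as bright, and Cox6a2 lies far outside the bands.

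Complex II was the lowest of the complexes, and its 4 subunits all passed 1.5-fold in that direction, Sdhc only just. Only 2 of the 4, Sdha and Sdhd, passed it with quantile normalization, cyclic loess or the authors' deposited table. Sdha, the flavoprotein that oxidises succinate, had signals of 1442 in Jam3-null cells and 3192 in WT cells, a difference of -1.05 ± 0.20 (2.07-fold lower). The other Sdha probes gave -0.73 and -0.28, and the mean over its probes was -0.69, so the 2-fold size rests on the probe used. With cyclic loess or in the authors' deposited table it was -0.93 and -0.98, short of 2-fold. Sdhd, a membrane anchor of the complex, had 23376 in Jam3-null cells and 45404 in WT cells, a difference of -0.86 ± 0.20. Sdhb, the iron-sulphur subunit, at 4783 in Jam3-null cells against 7942 in WT cells, and Sdhc, the other anchor, at 6068 in Jam3-null cells against 9737 in WT cells, gave -0.64 and -0.59. The median of the 4 was -0.75.

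Complex III had 8 of 9 subunits below 0, with a median of -0.50 and none at 2-fold. Cyc1, which carries the haem that hands electrons to cytochrome c, had 18785 in Jam3-null cells and 32664 in WT cells, a difference of -0.70 ± 0.20. Uqcrfs1, the Rieske iron-sulphur protein, had 14981 in Jam3-null cells and 23678 in WT cells, or -0.56. The core proteins Uqcrc1 and Uqcrc2 were at -0.45 and -0.38, so the 4 core and redox subunits had a median of -0.51. Among the 5 small subunits, Uqcr11, at 39699 in Jam3-null cells against 62219 in WT cells, gave -0.55. Uqcr10 was at -0.50, Uqcrq at -0.50 and Uqcrh at -0.28. A dimmer Uqcrq probe gave 0.56, and the mean over its probes 0.03. Uqcrb, a small subunit, was the exception, with 23907 in Jam3-null cells against 23028 in WT cells, or 0.15 ± 0.20, within its error of 0. With quantile normalization and cyclic loess Uqcrb was at 0.37 in each, and in the authors' deposited table at 0.35, past that error.

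Cytochrome c, the mobile carrier between complexes III and IV, was lower by about as much as Sdha, and its probes were close to each other. Cycs had 19665 in Jam3-null cells and 43159 in WT cells, a difference of -1.04 ± 0.20 (2.05-fold lower). Its 3 probes gave -1.04, -1.16 and -1.18. With quantile normalization or cyclic loess the first was -0.83 and -0.81, and in the authors' deposited table -0.86, each short of 2-fold. Cyct, the testis cytochrome c, was dim on both arrays and not well above background, at 5.46 in Jam3-null cells and 3.28 in WT cells.

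Complex IV differed the least. Of 10 ubiquitous subunits 9 were below 0, with a median of -0.33, a range of -0.43 to 0.08 and none at 1.5-fold. Cox8a had the lowest difference, with 63168 in Jam3-null cells and 90833 in WT cells. Cox4i1, the regulatory subunit that binds ATP, had 99750 in Jam3-null cells and 132934 in WT cells, or -0.32. Cox5a and Cox5b were at -0.34 and -0.38, Cox6b1 at -0.40, Cox7b at -0.35 and Cox7c at -0.29. Cox6c at -0.14 and Cox6a1 at -0.09 were within their error of 0 and above 0 under some other scalings. Cox7a2, at 44805 in Jam3-null cells against 45158 in WT cells, was at 0.08 after scaling, also within its error, and at or just under 0 with spike-in scaling. With the probes used, the differences of the complex II and the complex IV subunits did not overlap. The gap between them, from Sdhc at -0.59 to Cox8a at -0.43, is smaller than the error of either gene. The dimmest Sdha probe, at -0.28, lay within the complex IV range.

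All 15 complex V subunits were below 0, though Atp5e, Atp5f1, Atp5h, Atp5j and Atp5l were above 0 under some other scalings; the median was -0.46 and none passed 2-fold. At 1.5-fold 5 passed, but 0 did with quantile normalization, cyclic loess or the authors' deposited table. The c-ring, whose rotation is driven by protons, was the lowest of its parts: Atp5g1 had 15874 in Jam3-null cells and 27814 in WT cells, at -0.71, Atp5g3 was at -0.71 and Atp5g2 at -0.53. In the catalytic F1 head, Atp5a1 (alpha) was at -0.68, Atp5d (delta) at -0.62, Atp5b (beta) at -0.48 and Atp5c1 (gamma) at -0.45, with 103152 in Jam3-null cells and 153712 in WT cells for Atp5b. All 4 Atp5b probes were lower, from -1.01 to -0.48. The stalk genes were split, Atp5o at -0.67 and Atp5f1, Atp5h and Atp5j at -0.22, -0.10 and -0.04. Atp5l was at -0.13, and Atp5e, the epsilon subunit, had 66058 in Jam3-null cells against 71548 in WT cells, or -0.02. Atp5j2 at -0.46 and Atp5k at -0.32 are small membrane subunits, and dimmer probes of Atp5j2 and Atp5f1 gave 0.42 and 0.31. The pseudogene Atp5c1-ps, a near copy of Atp5c1 whose signal may not be separate from it, was at -0.62.

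**Figure D4:**
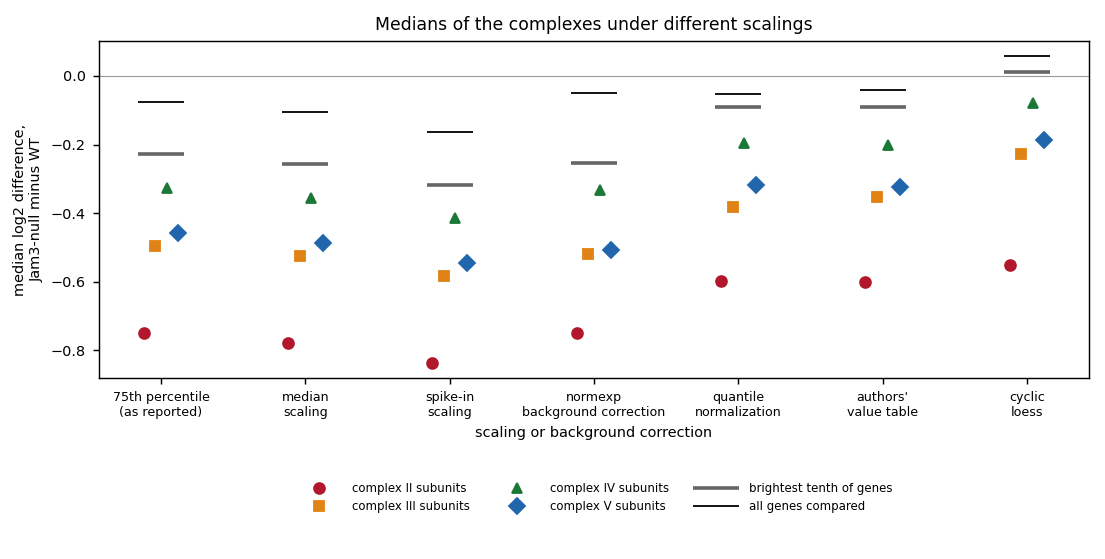
Median log2 difference, Jam3-null minus WT, of the subunits of each complex under 7 scalings or background corrections, with the medians of the brightest 10% and of all genes compared as lines. Complex II is the lowest in each, from -0.84 to -0.55, and complex IV the highest.

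Assembly factors and relatives were more mixed, with 9 of 13 (69.2%) below 0 and a median of -0.40. Below 0 were 55.2% of all genes compared and 68.5% of the brightest 10%, so that share is near the background of bright genes. Cox10, which makes the haem of complex IV by farnesylation, had 139 in Jam3-null cells and 312 in WT cells, a difference of -1.07 ± 0.21 (2.09-fold lower), or -0.84 after normexp background correction. Sdhaf1, needed for iron-sulphur insertion in complex II, was at -0.58, and Cox7a2l, which joins complexes III and IV in supercomplexes, at -0.51. Cox18, Cox16 and Cox15 were at -0.47, -0.45 and -0.40. Cox19, Cox14, Cox17 and Cox11, which include copper chaperones of complex IV, lay between -0.02 and 0.04 and changed sign with the scaling. The Cox17 value comes from a probe with no mapped position; its mapped probe gave 0.26. Probes differed in sign for Sdhaf2 (-0.06 for the probe used, 2 of its 4 probes above 0), Cox19 (a dim probe at 0.86), Atp5s (0.36 and -0.27) and Atp5sl (-0.62 and 0.01). Among the 19 genes with several measured probes, the signs matched in 12.

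The tissue isoforms of complex IV held the largest differences, and they went both ways. Cox6a2, the heart and skeletal muscle isoform of subunit VIa, which is also known in plasmacytoid dendritic cells of mice, had 148 in Jam3-null cells and 11226 in WT cells. That is a difference of -6.15 ± 0.21, or 70.9-fold lower, and 52.6-fold lower after normexp background correction. Cox6a2 was read by 1 probe in 1 spot, so no other probe checks that size. Cox6a1, its ubiquitous counterpart, had 182284 in Jam3-null cells and 207500 in WT cells, a difference of -0.09. Cox6b2, the testis isoform of subunit VIb, had 8601 in Jam3-null cells and 3872 in WT cells, 1.25 ± 0.20 or 2.37-fold higher. Its ubiquitous counterpart Cox6b1 was lower. The Cox6b2 value also rests on 1 probe in 1 spot. Cox7a1, a muscle isoform, had 525 in Jam3-null cells and 631 in WT cells, a difference of -0.17 within its error. Cox8b, also of muscle, was well above background in WT cells alone, at 5.68 in Jam3-null cells against 58.0 in WT cells, which gives at least 2.10-fold lower. Cox4i2, Cox7b2 and Cox8c were below that level in both genotypes.

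Markers of cells and tissues in which these isoforms are known, or that the sort could hold, were read beside them. Of 10 plasmacytoid dendritic cell markers 6 were measured, and all were lower, by a median of -1.28. Pacsin1 was at -3.85, Tcf4 at -2.72, Irf8 at -1.34 and Ly6d at -1.22. The summed signal was 10295 in Jam3-null cells against 33502 in WT cells, most of it from Tcf4 and Irf8. Tcf4 had 2067 in Jam3-null cells and 14594 in WT cells, and Irf8 had 4494 in Jam3-null cells and 12151 in WT cells. Siglech, a defining gene of plasmacytoid dendritic cells, and Klk1 were not well above background on the arrays, and Ccr9 and Spib were so only in WT cells. Of 12 striated muscle markers 3 were measured, Ckm at -1.81, Tnni3 at -0.52 and Actc1 at 0.45; Mb, Myh6 and Myh7 were not well above background on the arrays. Ttn was so in Jam3-null cells alone, at least 4.56-fold higher, and Tnnt2 and Myl2 in WT cells alone, with no bound in that direction. The muscle markers summed to 819 in Jam3-null cells against 996 in WT cells. Of 8 testis markers 4 were measured, 2 of them lower; Odf1 and Pgk2 were not well above background. Ldhc was so in Jam3-null cells alone, at least 12.7-fold higher, and Tekt1 in WT cells alone, at least 2.12-fold lower. The testis markers summed to 526 in Jam3-null cells against 381 in WT cells, and without Ldhc to 343 in Jam3-null cells against 375 in WT cells. Neutrophil markers, all 7 at least 2-fold higher, summed to 1044110 in Jam3-null cells against 178150 in WT cells, and mast cell and basophil markers, all 4 measured at least 2-fold lower, to 5199 in Jam3-null cells against 30179 in WT cells. Of 6 erythroid markers 3 were measured, Hba-a1 at 1.73, Hbb-b1 at 1.88 and Klf1 at -0.23. The part of these cells in the results was not tested.

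Genes that work with complexes II to V were also mostly lower in Jam3-null cells. For comparison, 55.2% of all genes compared were below 0, with a median of -0.07, and 68.5% of the brightest 10%, with a median of -0.23. All 17 tricarboxylic acid cycle and pyruvate dehydrogenase genes were below 0, also under the other scalings, with a median of -0.53, and Idh2, Suclg2 and Dlat were at -1.49, -1.48 and -1.42. Of 36 complex I genes 31 were below 0, with a median of -0.35, and 21 with a median of -0.11 under cyclic loess. A list of mainly import, chaperone and carrier genes of mitochondria, with Phb, Phb2, Immt, Chchd3 and Cpox added, had a median of -0.94 and 18 of 20 below 0. Of these, 10 (50%) were at least 2-fold lower, against 8.63% of all genes compared. The ADP/ATP carrier Slc25a4 was the lowest at -2.26, with 7919 in Jam3-null cells and 40673 in WT cells. Other assembly factors had 13 of 19 (68.4%) below 0, a share near that of the brightest 10%, and a median of -0.49, with Pet112 at -1.24 and Lrpprc at -1.04.

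Among mitochondrial biogenesis regulators 10 of 15 measured (66.7%) were below 0, against 55.2% of all genes compared, and the median was -0.24. At least 2-fold lower were 2 (13.3%), Ppargc1b and Peo1, against 8.63% of all genes compared, with Peo1 at -1.04. Ppargc1b, a coactivator of respiratory genes, had 150 in Jam3-null cells and 1874 in WT cells, 11.7-fold lower, while Ppargc1a was not well above background in either genotype. The factors whose motifs are shown above had smaller differences, with Nrf1 at 0.23, Gabpa at -0.08, Gabpb1 at -0.47 and Yy1 at 0.02. The mitochondrially encoded COX2, CYTB and ATP6 were at -0.03, -0.19 and -0.34. The ATP synthase inhibitor Atpif1 was at -0.50, and Nnt, which makes NADPH from the proton gradient, at -1.08.

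**Figure D5:**
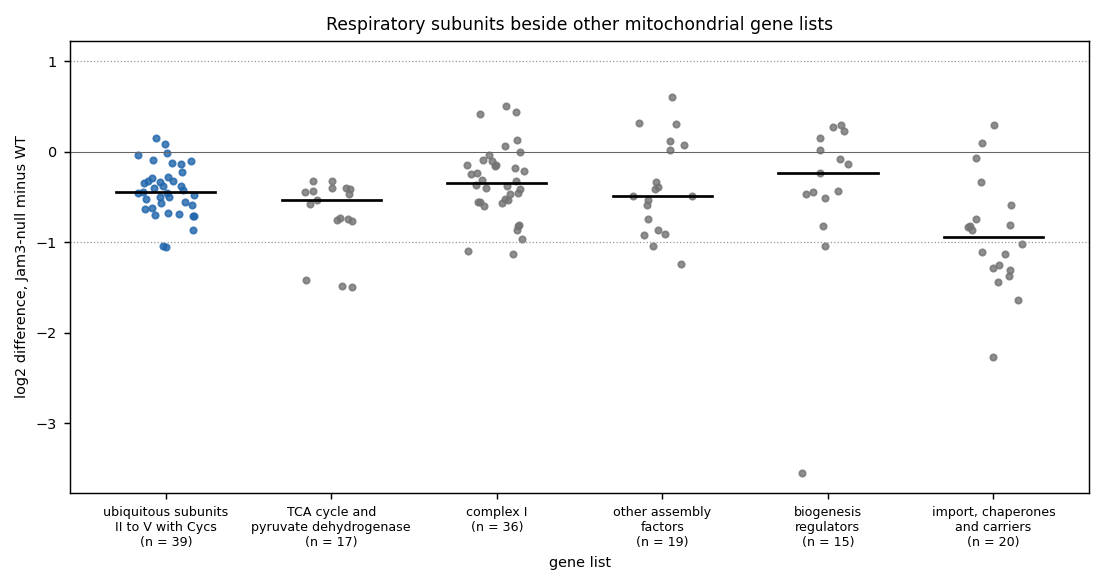
Log2 difference, Jam3-null minus WT, of the measured genes of each list, with the ubiquitous subunits of complexes II to V and Cycs at the left; bars are medians and dotted lines 2-fold. The subunits' points run from -1.05 to 0.15 around a median of -0.45. Each of the other lists reaches lower, the biogenesis regulators farthest, with Ppargc1b at -3.55. The list of import, chaperones and carriers also holds Phb, Phb2, Immt, Chchd3 and Cpox.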

How the data were processed

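The scanner software was Agilent Feature Extraction (10.7.3.1 in the file headers, 10.7 in the submitters' processing notes). Per the file headers, the deposited values are background-subtracted, detrended processed intensities on a linear scale, not normalized between arrays. The log2 value table deposited by the authors, with a median of 5.66 in both columns, served as an alternative only. Both arrays lie on 1 slide, per the file headers. Spots flagged as outliers were left out, and 0 non-control spots were saturated. Log2 processed intensities were scaled to each array's 75th percentile (667.8 for Jam3-null, 713.9 for WT). A gene took its probe with the highest mean signal and was compared when well above background on both arrays; on 1 array only it has a bound. Genes keep the names of the files, and 58 of 61 matched a RefSeq table of GRCm38.p6 by accession.

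The members, lists and motifs were chosen with earlier results of these data known. The genes named are the lowest and highest of each complex, those at least 2-fold apart, those whose probes differ in sign, and other members by their roles. The steps were tested on simulated data. Alternatives were normexp (offset 50), quantile, cyclic loess, median and spike-in scaling, the value table, probe filters, spot flags, bounds, the mean of probes and a 1.5-fold threshold. R 4.3.3, limma 3.58.1, Python 3.11.15, numpy 2.4.6 and pandas 2.3.3 were used.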

Additional observations from a re-analysis of the deposited data

How the results depend on the processing

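With 1 array per genotype, differences have no replicate check. No paired analysis was possible because each genotype has 1 array. The genes at least 2-fold lower, 4 as reported, were 2 under quantile normalization, 2 under cyclic loess, 2 in the authors' value table (Cox6a2 and Cox10 in each) and 15 at 1.5-fold. Under cyclic loess the medians were -0.23 for complex III, -0.078 for complex IV and -0.19 for complex V, where the median of all genes was 0.06 and of the brightest 10% 0.01. Cox6a2 was at -5.72 after normexp. The number of measured genes below 0, 49 as reported, was 40 under cyclic loess, and 29 of 39 ubiquitous subunits with Cycs were below 0 under every alternative. The ubiquitous median relative to that of the brightest 10% ran from -0.21 to -0.15. Of 602 values of 55 single genes under the alternatives, 548 moved by less than the error, 54 moved more, and 0 of those at least 2-fold apart changed sign. Cox6a2 is not among the 55, and its move after normexp was larger than its error. Many of the 548 could not move. The dim-probe and brightness filters, the bounds and the spot flags (0 outlier spots among these genes) leave a gene's own value unchanged. Median and spike-in scaling shift all genes by the same amount, less than the error. The count is therefore no measure of stability. The cause of the differences between the genotypes was not tested.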
